A study of Arabidopsis thaliana with 6 samples.

Results

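The cell-division genes examined here were 52 loci of Arabidopsis thaliana, taken by locus identifier, with earlier results of these data known. They encode A- and B-type cyclins, B-type cyclin-dependent kinases, aurora kinases, spindle and phragmoplast kinesins and their partners, checkpoint and condensin proteins, and the MYB3R regulators of mitosis. All 52 were found among the 33602 loci of the deposited table. Transcripts were measured by sequencing poly(A) RNA of germinating seeds in 3 libraries of scl30a-1 and 3 libraries of the wild type (WT, Col-0). The scl30a-1 mutant, the 1 mutant line used, is named for SCL30a (AT3G13570), which encodes a serine/arginine-rich splicing factor. Seeds of both genotypes (50 mg) were kept at 4 degrees Celsius for 3 days, sown on MS medium, grown at 21 degrees Celsius in continuous white light of 100 µmol/m2, and collected 18 h after this cold treatment. Whole seeds were used, so embryo, endosperm and seed coat were sampled together.

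A plant cell that leaves the G2 phase assembles a spindle and then divides by building a new wall from the inside, on a microtubule array called the phragmoplast. Cyclins of the A and B types switch on cyclin-dependent kinases at this step, and CDKB kinases, found in plants and algae, are made around the G2 phase and mitosis. Many of these genes share a promoter element, the mitosis-specific activator (MSA) element, which MYB3R proteins bind. In a germinating seed the embryo first enlarges, and cells of the root tip resume the cell cycle around the time the radicle emerges.

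Total counts were 77817191 to 85605647 per scl30a-1 library and 70687361 to 84356746 per WT library. SCL30a itself, the check of the labels, averaged 5.74 ± 0.156 CPM (counts scaled to a common library total) in scl30a-1 and 96.1 ± 0.92 CPM in WT (SD, n = 3 each), with no overlap. Where a mean below carries a ± value, this is the SD over the 3 libraries of a genotype. The labels do not say whether these libraries came from separate plants or seed lots beyond calling them biological triplicates. Fold changes are log2 values of scl30a-1 over WT from edgeR's quasi-likelihood test, with p-values adjusted by the Benjamini-Hochberg method over the 18736 genes tested. A gene is called at an adjusted p under 0.05.

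Most mitotic and cytokinesis transcripts that could be tested were less abundant in scl30a-1 seeds. Of the 52 members, 30 fell and 0 rose, 12 were tested and not called, and 10 had too few counts to test. Higher levels at an unadjusted p under 0.05 were found for 1 member (EDE1) with edgeR, 1 with limma-voom and 0 with DESeq2. Falls were called for 71.4% of the 42 members tested, where 19.7% of all genes tested were called lower, 21.9% higher and 41.7% in either direction. With upper-quartile scaling 35 members were called lower, beside 28.1% of all genes called lower and 15.8% higher, and with no composition scaling 34 members, beside 24.5% lower and 16.6% higher. A fall of at least 2-fold was called for 15 members, against 2.59% of all genes tested. All scl30a-1 libraries lay below all WT libraries for 33 of the 42, which held for 25.2% of all genes tested. The median log2 fold change was -0.77 over the members tested and 0.00274 over all genes tested. Summed over the 52 genes, the members reached 263.9, 242.2 and 263 CPM in libraries a, b and c of scl30a-1, against 395.2, 426.1 and 458 CPM in libraries a, b and c of WT. 2 members passed the filter on low counts without reaching its minimum of 0.126 CPM in every library: CYCA1;1 in 2 scl30a-1 and 3 WT libraries, and CYCA2;1 in 2 scl30a-1 and 2 WT libraries. These are bulk libraries taken at 18 h only. In them the share of dividing cells, the RNA per cell and the stage the seeds had reached cannot be told apart. How many cells were dividing was not measured. The 10 untested members, among them KNOLLE, HINKEL and TPX2, had at most 10 counts per library in WT as well.

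Markers of other seed tissues and stages were set beside the members. The 9 storage protein and oleosin genes listed as markers of the maturing seed were all called higher, and their summed level was 9414 to 11035 CPM in scl30a-1 and 1199 to 1516 CPM in WT. The 4 endosperm markers summed to 850.3 to 982.6 CPM in scl30a-1 and 333.5 to 409.3 CPM in WT, with 2 called higher, 1 called lower and 1 not called. EPR1 carried most of this sum, at 724.2 ± 78.3 CPM in scl30a-1 and 228.5 ± 40.9 CPM in WT, and the other 3 summed to 181 to 205.2 CPM in scl30a-1 and 137.4 to 142.7 CPM in WT. Among 8 markers of the root and shoot meristems the summed level was 114.6 to 120.3 CPM in scl30a-1 and 110.7 to 113.5 CPM in WT. SCR carried most of this sum, at 70.87 ± 3.69 CPM in scl30a-1 and 68.35 ± 2.56 CPM in WT. The shoot meristem gene STM rose by 0.81, SHR, a regulator of root patterning, fell by 0.29, and the other 6, among them PLT1, PLT2, SCR and WOX5, were not called. All scl30a-1 libraries lay above all WT libraries for 4 of the 8 (STM, PLT1, PLT2 and WUS) and below them for 1 (SHR). For the other 3 the libraries overlapped. What part these markers have in the falls of the mitotic genes was not tested.

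**Figure D1:**
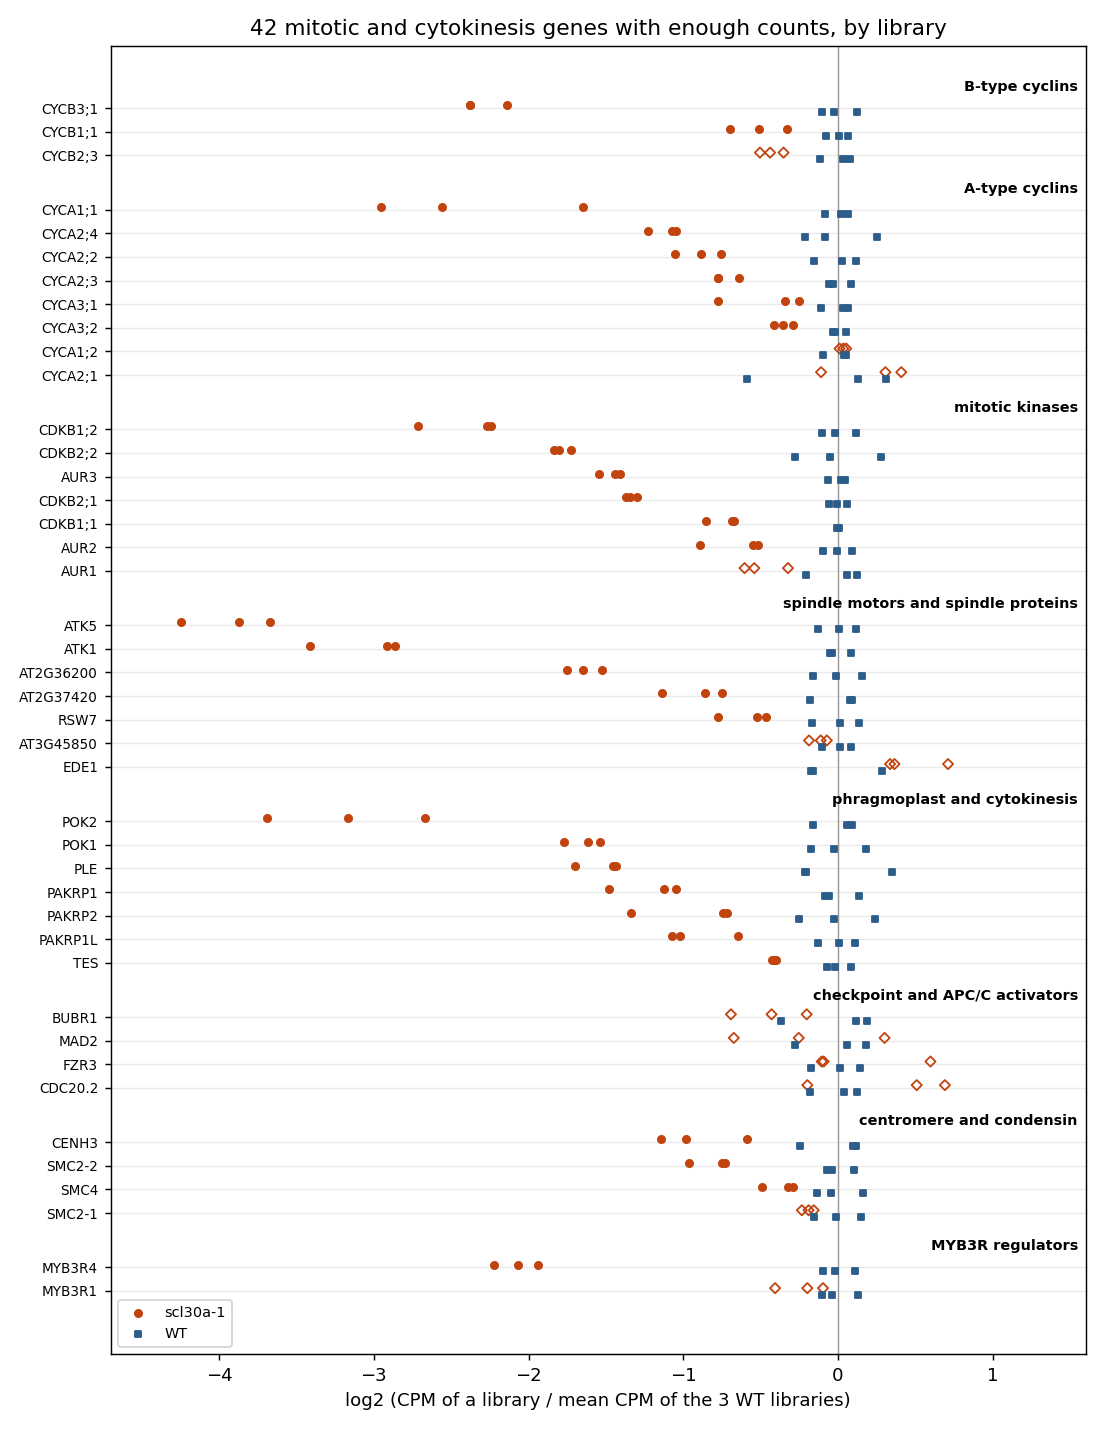
Level of each of the 42 members with enough counts to test, in each library, as log2 of its CPM over the mean CPM of the 3 WT libraries. Orange symbols are scl30a-1 libraries (filled where the gene was called lower, open where it was not called), blue squares are WT libraries, and the filled symbols all lie left of the WT libraries.

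The upstream regulators were taken first. MYB3R4 (AT5G11510), an activator of G2/M genes, had 2.48, 2.26 and 2.04 CPM in libraries a, b and c of scl30a-1, against 8.88, 9.36 and 10.2 CPM in libraries a, b and c of WT. The genotypes did not overlap, and MYB3R4 fell to 23.8% of the WT level (log2 fold change -2.07 with SE 0.0945 and edgeR adjusted p = 1.19e-07). MYB3R1 (AT4G32730), its close relative and the more abundant of the pair, had 30.1, 24.3 and 28 CPM in scl30a-1, against 30, 31.2 and 35.2 CPM in WT. Its libraries overlapped, and it was not called (log2 fold change -0.23 with SE 0.084 and edgeR adjusted p = 0.052). That value lay close to the threshold, and MYB3R1 was called lower under 8 of 15 other settings, with adjusted p from 0.0193 to 0.126. Without scl30a-1 library b its log2 fold change was -0.15. Per length, the mean level was 0.637 CPM per kilobase of transcript (CPM/kb) in scl30a-1 and 2.68 CPM/kb in WT for MYB3R4. For MYB3R1 it was 7.23 CPM/kb in scl30a-1 and 8.47 CPM/kb in WT. Of the other genes of the MYB3R family, MYB3R3 (log2 fold change 0.06) and MYB3R5 (0.12), known as repressors, were not called.

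The core of the MSA element, AACGG, was searched on both strands in the 300 bases from 250 before to 50 after the annotated gene start (RefSeq, TAIR10.1). It was present in 32 of the 52 members (61.5%), where 24.7% of the 27443 promoters of protein-coding genes held it. 3 or more copies were found in 13 members (25%), against 1.06% of all promoters. Among the 15 members called at least 2-fold lower, 7 held the core and 2 held 3 or more copies. Of all genes called at least 2-fold lower, 28.2% held the core and 2.01% held 3 or more copies. For all genes tested these shares were 26.7% and 1.2%. Of the 15 members called lower by less than 2-fold, 9 held it and 3 held 3 or more, and of the 12 not called 8 held it. In the 10 members with too few counts to test, 8 held it and 6 held 3 or more, whereas 20.6% of the promoters of all untested genes held the core. B-type cyclins make up 6 of these 10 members, and 6 of all 9 B-type cyclins held 3 or more copies. Words of the E2F site (TTTCCCGC, TTTCGCGC, TTTGCCGC and TTTGGCGC), searched after the values had been seen, were found in 3 members (5.77%), against 1.76% of all promoters. A match of such short words is a description of the window and not a shown binding site.

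5 upstream stretches of 250 bases are printed from 5′ to 3′ as examples, with each copy of the core, on either strand, in capitals. The 50 bases after the gene start, which were part of the window searched, are not printed. CYCB1;2 (chr5:1861704-1861953 on the minus strand) and CYCB2;2 (chr4:16901346-16901595 on the plus strand) are B-type cyclin genes that were barely detected in either genotype. CYCA1;1 (chr1:16777353-16777602 on the minus strand) and PLE (chr5:20964538-20964787 on the minus strand) fell by at least 2-fold and hold copies too. They are the 2 members with such a fall that hold 3 or more in the whole window. There, CYCB1;2 holds 5 copies, and CYCB2;2, CYCA1;1 and PLE hold 3 each. The prints of CYCB1;2, CYCA1;1 and PLE lack 1 copy each, at 3, 8 and 34 bases after the gene start. ATK5 (chr4:2674814-2675063 on the plus strand), the member that fell furthest, holds none.
CYCB1;2: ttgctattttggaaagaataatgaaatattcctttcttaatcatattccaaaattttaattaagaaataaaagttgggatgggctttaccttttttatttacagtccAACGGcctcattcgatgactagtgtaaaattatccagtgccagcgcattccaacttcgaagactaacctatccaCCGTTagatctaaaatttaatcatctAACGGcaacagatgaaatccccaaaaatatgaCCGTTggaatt
CYCB2;2: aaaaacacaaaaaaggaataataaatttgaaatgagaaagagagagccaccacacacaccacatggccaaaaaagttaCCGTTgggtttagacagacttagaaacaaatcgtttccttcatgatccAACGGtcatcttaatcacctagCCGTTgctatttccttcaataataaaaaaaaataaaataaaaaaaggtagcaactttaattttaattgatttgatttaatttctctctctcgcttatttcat
CYCA1;1: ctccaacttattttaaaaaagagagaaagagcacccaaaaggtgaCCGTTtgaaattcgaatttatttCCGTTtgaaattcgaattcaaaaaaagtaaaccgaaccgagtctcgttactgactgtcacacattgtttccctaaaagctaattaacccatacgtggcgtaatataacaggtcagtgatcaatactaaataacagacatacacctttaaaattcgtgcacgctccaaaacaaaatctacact
PLE: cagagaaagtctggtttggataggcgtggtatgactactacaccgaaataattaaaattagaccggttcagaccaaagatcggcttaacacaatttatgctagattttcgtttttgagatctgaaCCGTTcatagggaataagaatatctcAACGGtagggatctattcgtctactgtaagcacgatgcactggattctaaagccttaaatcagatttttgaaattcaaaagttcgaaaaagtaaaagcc
ATK5: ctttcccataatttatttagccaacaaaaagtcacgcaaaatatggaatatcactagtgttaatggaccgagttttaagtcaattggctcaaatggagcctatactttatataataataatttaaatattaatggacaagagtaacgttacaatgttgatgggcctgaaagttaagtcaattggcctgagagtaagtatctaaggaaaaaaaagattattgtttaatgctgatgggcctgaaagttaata

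**Figure D2:**
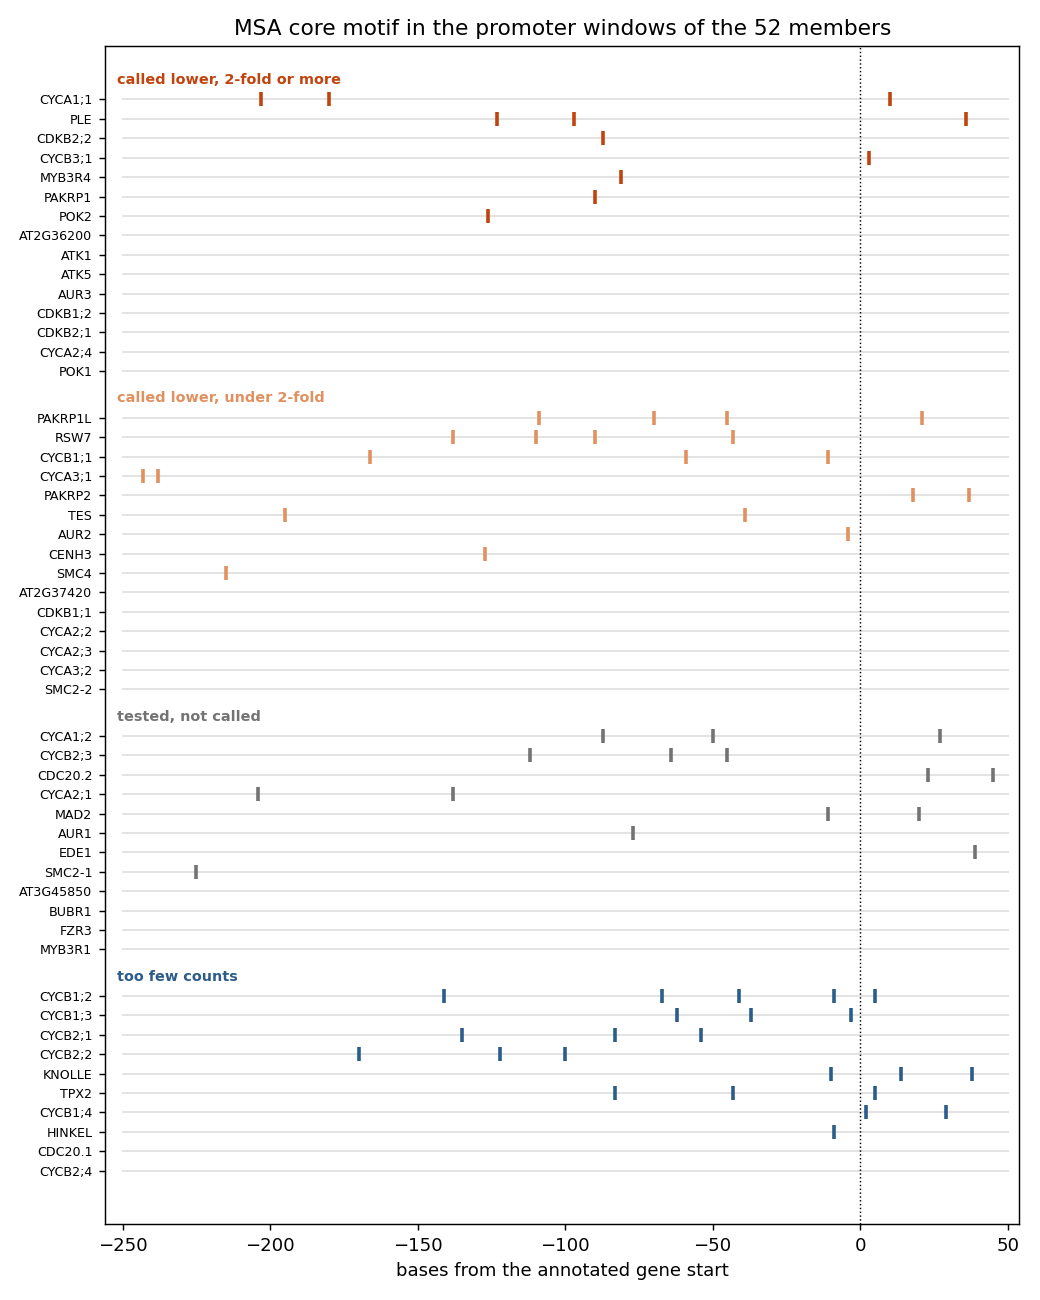
Position of each copy of the MSA core, in bases from the annotated gene start (dotted line), in the windows of the 52 members, grouped by the outcome of the test. Each tick is 1 copy on either strand, and 6 of the 10 genes with too few counts hold 3 or more, against 2 of the 15 that fell by at least 2-fold. B-type cyclins make up 6 of these 10, and 6 of all 9 B-type cyclins hold 3 or more.

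B-type cyclins drive entry into mitosis. Of the 9 genes, 2 fell, 1 was not called and 6 were barely detected in seeds of either genotype. CYCB1;2 (AT5G06150) had 5 to 12 counts per library in scl30a-1 and 5 to 8 in WT. CYCB1;3 (AT3G11520) had 2 to 8 counts in scl30a-1 and 3 to 5 in WT, while CYCB1;4 (AT2G26760), CYCB2;1 (AT2G17620), CYCB2;2 (AT4G35620) and CYCB2;4 (AT1G76310) had 0 to 3 counts in every library. No difference was detectable for these at this depth. CYCB3;1 (AT1G16330) had 1.52, 1.29 and 1.29 CPM in scl30a-1, against 6.58, 6.24 and 7.29 CPM in WT. All scl30a-1 libraries were far below the WT libraries, at 20.4% of the WT mean (log2 fold change -2.29 with SE 0.105 and edgeR adjusted p = 1.2e-07). CYCB1;1 (AT4G37490), which is induced by DNA damage as well as in G2, was the most abundant of the 9 per length. It had 7.42, 8.4 and 6.51 CPM in scl30a-1, against 10, 11.1 and 10.6 CPM in WT. It fell to 70.5% of the WT mean (log2 fold change -0.51 with SE 0.0909 and edgeR adjusted p = 0.0016). CYCB2;3 (AT1G20610) averaged 0.493 ± 0.0262 CPM in scl30a-1 and 0.664 ± 0.045 CPM in WT and was not called (edgeR adjusted p = 0.0542), although its libraries did not overlap. Its adjusted p was 0.0354 when no composition scaling was used and 0.029 after upper-quartile scaling. CYCB2;3 shares 18.7% of its words with AT1G20590, which averaged 0 CPM in both genotypes.

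A-type cyclins act from S phase to the start of mitosis. Of the 8 genes 6 fell, and the largest fall was that of CYCA1;1 (AT1G44110), the A1 cyclin of dividing cells. It had 0.152, 0.286 and 0.116 CPM in scl30a-1, against 0.938, 0.848 and 0.909 CPM in WT, which were 9 to 22 counts in scl30a-1 and 65 to 79 in WT. Its libraries were well apart (log2 fold change -2.28 with SE 0.258 and edgeR adjusted p = 8.08e-05). The paralogue CYCA1;2 (AT1G77390), also called TAM and known for its part in meiosis, averaged 4.36 ± 0.0648 CPM in scl30a-1 and 4.26 ± 0.234 CPM in WT and was not called (edgeR adjusted p = 0.764). The A2 cyclins limit the switch from division to endoreduplication. Among them CYCA2;4 (AT1G80370) had 0.959, 0.845 and 0.941 CPM in scl30a-1, against 1.88, 2.36 and 1.71 CPM in WT (log2 fold change -1.11 with SE 0.151 and edgeR adjusted p = 0.000274). CYCA2;3 (AT1G15570) had 3.92, 3.92 and 4.32 CPM in scl30a-1, against 6.58, 7.12 and 6.44 CPM in WT (log2 fold change -0.73 with SE 0.0791 and edgeR adjusted p = 6.21e-05). In both, each scl30a-1 library was below each WT library. CYCA2;2 (AT5G11300) fell to 53.8% of the WT mean, while CYCA2;1 (AT5G25380), at 10 to 13 counts in scl30a-1 and 6 to 12 in WT, was not called. The A3 cyclins, which are expressed earlier in the cycle, fell least of the 6, to 78.4% for CYCA3;2 (AT1G47210) and 73.7% for CYCA3;1 (AT5G43080). The call for CYCA3;1 was lost without WT library b (edgeR adjusted p = 0.0689).

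Mitotic kinases fell in 6 of 7 cases, and in all 7 the scl30a-1 libraries were below the WT libraries. CDKB1;2 (AT2G38620) had 0.76, 0.559 and 0.773 CPM in scl30a-1, against 3.41, 3.61 and 3.97 CPM in WT (log2 fold change -2.39 with SE 0.135 and edgeR adjusted p = 5.3e-07). Its near copy CDKB1;1 (AT3G54180) fell to 60.1% of the WT mean, a smaller fall than that to 19% in CDKB1;2, though the difference between the 2 genes was not tested. Per length, CDKB1;2 stood at 0.485 CPM/kb in scl30a-1 and 2.55 CPM/kb in WT, and CDKB1;1 at 0.397 CPM/kb in scl30a-1 and 0.66 CPM/kb in WT. CDKB2 kinases, whose transcripts peak in G2 and mitosis, both fell. CDKB2;1 (AT1G76540) had 2.28, 2.17 and 2.2 CPM in scl30a-1, against 5.58, 5.84 and 5.39 CPM in WT (log2 fold change -1.33 with SE 0.0814 and edgeR adjusted p = 8.98e-07). CDKB2;2 (AT1G20930) had 0.959, 0.91 and 0.889 CPM in scl30a-1, against 3.06, 3.85 and 2.62 CPM in WT (log2 fold change -1.78 with SE 0.158 and edgeR adjusted p = 1.45e-05). The WT libraries of CDKB2;2 were more spread than those of scl30a-1 but stayed above them.

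Aurora kinases phosphorylate histone H3 and guide chromosome segregation and the division plane. AUR3 (AT2G45490) had 2.92, 2.65 and 2.86 CPM in scl30a-1, against 7.4, 7.98 and 7.87 CPM in WT, a clear separation (log2 fold change -1.46 with SE 0.0776 and edgeR adjusted p = 3.28e-07). AUR2 (AT2G25880) fell to 64% of the WT mean, and AUR1 (AT4G32830), at 71.5%, was not called (edgeR adjusted p = 0.0513; called lower under 4 of 15 other settings). Reads of AUR2 are uncertain, since 35.9% of the 36-base words of its transcript also occur in the overlapping gene AT2G25890 on the opposite strand, which rose (log2 fold change 2.53). The use of strand is not given in the sources used here. Words shared with an overlapping gene on the opposite strand made up 11.6% of the transcript of CDKB2;2 and 17.3% of that of AUR1. For CDKB1;2, 14.3% were shared with its opposite gene AT2G38630 or with CDKB1;1, and AT2G38630 was not called.

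Of 8 spindle genes 5 fell, 2 were not called and 1 was not tested, and they held the largest fall of all members. ATK5 (AT4G05190) and ATK1 (AT4G21270) are kinesin-14 motors that move towards microtubule minus ends and gather the spindle poles. ATK5 had 0.269, 0.234 and 0.18 CPM in scl30a-1, against 3.13, 3.44 and 3.71 CPM in WT, which is 6.64% of the WT mean (log2 fold change -3.90 with SE 0.159 and edgeR adjusted p = 5.4e-08). ATK1 had 1.05, 1.09 and 0.748 CPM in scl30a-1, against 7.68, 7.75 and 8.44 CPM in WT, or 12.1% of the WT mean (log2 fold change -3.04 with SE 0.122 and edgeR adjusted p = 4.94e-08). Every scl30a-1 library of both genes lay far below every WT library. ATK5 shares 11.3% of its words with ATK1 or with AT4G05200, which overlaps it on the opposite strand and averaged 0 CPM in scl30a-1 and 0.00383 CPM in WT.

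Kinesin-5 motors slide spindle microtubules apart, and the 4 genes differed widely. AT2G36200 had 15.4, 14.3 and 16.8 CPM in scl30a-1, against 43.2, 47.8 and 53.5 CPM in WT (log2 fold change -1.64 with SE 0.0845 and edgeR adjusted p = 2.63e-07). Per length it reached 4.42 CPM/kb in scl30a-1 and 13.7 CPM/kb in WT, where SMC4 alone was higher among the members. AT2G37420 fell to 53.4% of the WT mean and RSW7 (AT2G28620) to 66.8%. AT3G45850 averaged 23.9 ± 0.964 CPM in scl30a-1 and 26.1 ± 1.7 CPM in WT and was not called (edgeR adjusted p = 0.123), with overlapping libraries. EDE1 (AT2G44190), a microtubule-binding protein of the endosperm and embryo, was the 1 member tested whose scl30a-1 libraries all lay above the WT libraries, at 0.699 ± 0.105 CPM in scl30a-1 and 0.5 ± 0.0946 CPM in WT. It was not called (edgeR adjusted p = 0.0833) but was called higher without WT library c (0.0438). TPX2 (AT1G03780), a spindle assembly factor, had 0 to 4 counts per library.

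Of the 9 members of the phragmoplast and cytokinesis subgroup, all 7 that could be tested fell, 4 of them by at least 2-fold. POK1 (AT3G17360) and POK2 (AT3G19050) are kinesins that mark the division site and steer the phragmoplast to it. POK2 had 0.784, 0.546 and 1.11 CPM in scl30a-1, against 6.3, 7.35 and 7.5 CPM in WT (log2 fold change -3.12 with SE 0.177 and edgeR adjusted p = 5.3e-07). POK1 had 12.9, 10.9 and 12.1 CPM in scl30a-1, against 32.9, 36.6 and 42.2 CPM in WT (log2 fold change -1.64 with SE 0.0932 and edgeR adjusted p = 5.49e-07). For POK2 the scl30a-1 libraries held 42 to 86 counts, and its overlapping neighbour on the same strand accounts for 0.406% of its words.

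PLE (AT5G51600), also MAP65-3, bundles microtubules in the middle of the phragmoplast. It had 0.398, 0.403 and 0.335 CPM in scl30a-1, against 0.938, 1.38 and 0.943 CPM in WT (log2 fold change -1.51 with SE 0.21 and edgeR adjusted p = 0.000314). PAKRP1 (AT4G14150), a kinesin-12 of the phragmoplast, had 5.9, 4.37 and 5.59 CPM in scl30a-1, against 11.7, 11.5 and 13.4 CPM in WT (log2 fold change -1.20 with SE 0.109 and edgeR adjusted p = 1.69e-05). The genotypes stayed apart in both genes. Its partner PAKRP1L (AT3G23670) fell to 53.6% of the WT mean, PAKRP2 (AT4G14330) to 53.3% and TES (AT3G43210), a kinesin known for cytokinesis in pollen, to 75%. TES was the most abundant of this subgroup per length, at 5.29 CPM/kb in scl30a-1 and 7.05 CPM/kb in WT. Its relative HINKEL (AT1G18370), which acts in cell plate growth in other cells, had 0 to 3 counts in every library. KNOLLE (AT1G08560), the syntaxin of the cell plate, had 1 to 7 counts in scl30a-1 and 1 to 3 in WT. KNOLLE shares 31.8% of its words with AT1G08550 on the opposite strand. Neither gene allowed a comparison at this depth.

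**Figure D3:**
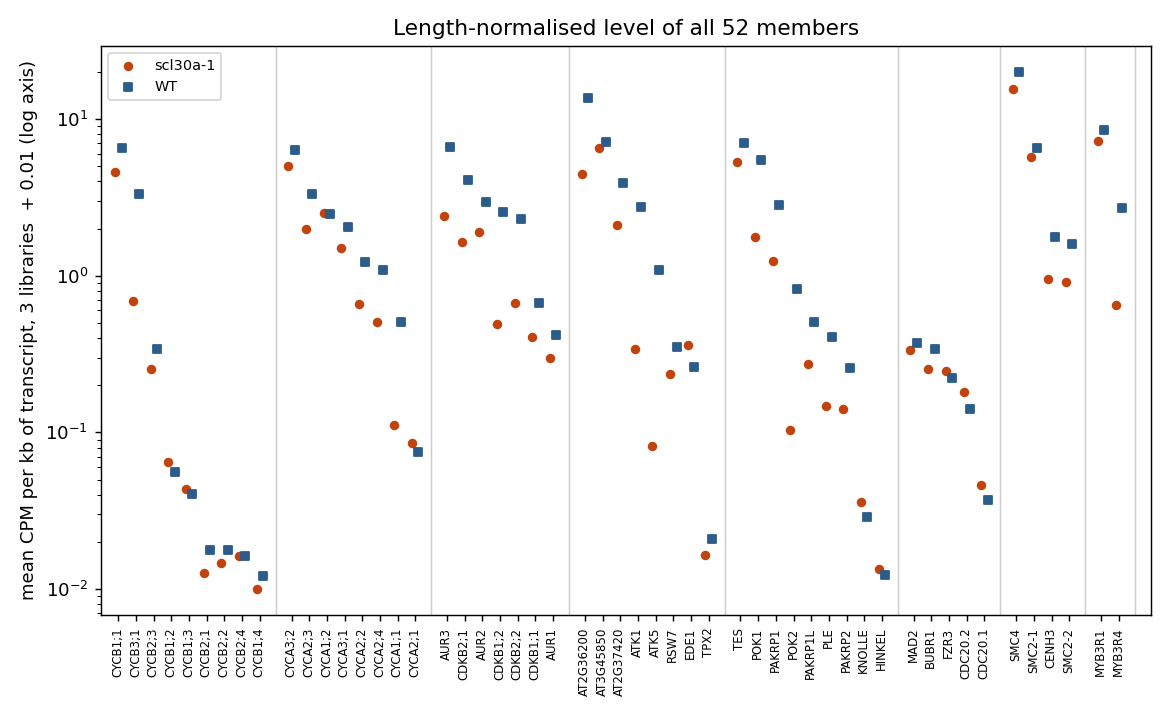
Mean CPM per kilobase of transcript of all 52 members in scl30a-1 (orange circles) and WT (blue squares) on a log axis, after adding 0.01, ordered within each subgroup by the WT level. WT levels run from 20 CPM/kb in SMC4 to 0.0021 CPM/kb in CYCB1;4, and the orange circles lie below the blue squares for most genes above 0.1 CPM/kb outside the checkpoint genes.

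Of 4 chromosome structure genes 3 fell, each by less than 2-fold. CENH3 (AT1G01370), the histone H3 variant of centromeres, had 1.3, 1.7 and 1.16 CPM in scl30a-1, against 2.74, 2.78 and 2.16 CPM in WT (log2 fold change -0.88 with SE 0.159 and edgeR adjusted p = 0.00163). SMC2-2 (AT3G47460), a condensin subunit, had 3.79, 3.26 and 3.83 CPM in scl30a-1, against 6.06, 6.2 and 6.83 CPM in WT (log2 fold change -0.81 with SE 0.0897 and edgeR adjusted p = 7.06e-05). No libraries overlapped in either. SMC4 (AT5G48600), the most abundant member, fell to 77.7% of the WT mean. The second SMC2 gene, SMC2-1 (AT5G62410), averaged 23.1 ± 0.615 CPM in scl30a-1 and 26.5 ± 2.8 CPM in WT and missed the threshold (edgeR adjusted p = 0.054; called lower under 6 of 15 other settings).

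The members that act in the spindle checkpoint or activate the anaphase-promoting complex had no called change. Of these 5 genes, 4 of them tested in the main fit, 0 were called by edgeR, DESeq2 or limma-voom. Among all genes tested, edgeR called 41.7% in either direction. With 4 genes tested, a count of 0 says little about the subgroup. An unadjusted p under 0.05 was found for 0 of the 5 in any of these tests. The median log2 fold change of the 4 tested was 0.0216. BUBR1 (AT2G33560), a spindle checkpoint protein, had 0.374, 0.312 and 0.438 CPM in scl30a-1, against 0.546, 0.391 and 0.575 CPM in WT (log2 fold change -0.43 with SE 0.222 and edgeR adjusted p = 0.148). CDC20.2 (AT4G33260), an activator of the complex, had 0.409, 0.221 and 0.361 CPM in scl30a-1, against 0.224, 0.261 and 0.276 CPM in WT (log2 fold change 0.38 with SE 0.272 and edgeR adjusted p = 0.287). The libraries overlapped in both. The value of CDC20.2 moved to 0.19 when library a of scl30a-1 was left out and to 0.60 when library b was. MAD2 (AT3G25980; log2 fold change -0.15, SE 0.27) and FZR3 (AT5G13840; 0.19, SE 0.242) were not called either. All 4 had 16 to 52 counts per library, and their standard errors of 0.222 to 0.272 were wider than those of most members, so small changes were not detectable at this depth. FZR3 shares 18.3% of its words with AT5G02105. CDC20.1 (AT4G33270), with 1 to 10 counts, was not tested, and CDC20.1 and CDC20.2 share 35.7% and 38.8% of their words with near copies.

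Levels per length spread over a wide range within the list. SMC4 led in WT seeds, at 15.6 ± 1.12 CPM/kb in scl30a-1 and 20 ± 2.18 CPM/kb in WT, followed by AT2G36200 and MYB3R1. Next in WT came AT3G45850 (7.09 ± 0.463), TES (7.05 ± 0.389), AUR3 (6.62 ± 0.263), SMC2-1 (6.54 ± 0.691), CYCB1;1 (6.48 ± 0.326) and CYCA3;2 (6.33 ± 0.205), and neighbours among these 6 overlapped in their mean ± SD. In scl30a-1 the order differed, with AT3G45850 at 6.51 ± 0.262 CPM/kb and AUR3 at 2.40 ± 0.122 CPM/kb. In all, 27 members reached 1 CPM/kb in WT and 11 were under 0.1 CPM/kb.

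A second list of 38 genes of the same processes, not among the members, was examined in the same fit. Of 37 tested, 20 fell and 1 rose, with a median log2 fold change of -0.60. That is 54.1% called lower, where 19.7% of all genes tested were. A fall of at least 2-fold was called for 11, against 2.59% of all genes tested. MAP65-4 (AT3G60840), a relative of PLE, had 1.27 ± 0.0265 CPM in scl30a-1 and 6.98 ± 0.534 CPM in WT (log2 fold change -2.46 with SE 0.0957 and edgeR adjusted p = 3.75e-08). OSD1 (AT3G57860), an inhibitor of the anaphase-promoting complex, fell by 2.32 on the log2 scale. The condensin genes CAP-H (-1.91) and CAP-D2 (-1.38), the kinase regulators CKS2 (-1.87) and WEE1 (-1.43), and the checkpoint gene BUB3.2 (-1.74) fell by at least 2-fold as well. So did RUNKEL (-1.66), ANP1 (-1.03), ANP2 (-1.52) and ANP3 (-1.72), kinases that act in phragmoplast expansion. The checkpoint genes BUB3.1 (-0.62) and MPS1 (-0.60) fell by less. Falls under 2-fold were also called for the kinetochore genes NDC80 (-0.96) and CENP-C (-0.71) and for NPSN11 (-0.98), which acts in cytokinesis. MKK6 (-0.97), CKS1 (-0.85), ESP (-0.55) and CAP-G (-0.49) made up the rest of the falls. The 1 called higher was CCS52A2 (log2 fold change 0.22), an activator of the anaphase-promoting complex linked to endoreduplication, and this call was lost when no composition scaling (adjusted p = 0.0605) or upper-quartile scaling (0.0555) was used. The other 16 were not called, among them CDKA;1 (0.10), the main cyclin-dependent kinase, the kinetochore gene NUF2 (-0.07), the checkpoint gene MAD1 (0.02), and MAP65-1 (0.0032), KEULE (0.04) and SNAP33 (-0.03), which act in cytokinesis.

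Genes of earlier steps of the cell cycle were examined in the same fit. Of 17 S-phase genes 4 fell, 2 rose and 11 were not called, with a median log2 fold change of -0.12 and none changed by 2-fold. That is 23.5% called lower, near the 19.7% of all genes tested. With upper-quartile scaling 8 fell and 0 rose, beside 28.1% of all genes lower. The replication helicase genes MCM2, MCM3, MCM4, MCM5 and MCM6 were not called and MCM7 fell by 0.20 on the log2 scale. TSO2 (-0.48), a ribonucleotide reductase subunit, and CDC6 (-0.52), a licensing factor, had the smallest p. D-type cyclins, which act at entry into the cycle, had 7 falls and 1 rise among 9 tested, between -0.55 and 0.14 on the log2 scale. That is 77.8% called lower, against 19.7% of all genes tested and 71.4% of the mitotic members tested. Their median log2 fold change was -0.34, and none changed by 2-fold. CYCD3;2 (-0.41) and CYCD1;1 (-0.35) had the smallest p among them. The 3 rises in these lists (PCNA2, RNR2A and CYCD2;1) were not called with upper-quartile scaling. The difference between these lists and the mitotic genes was not tested.

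**Figure D4:**
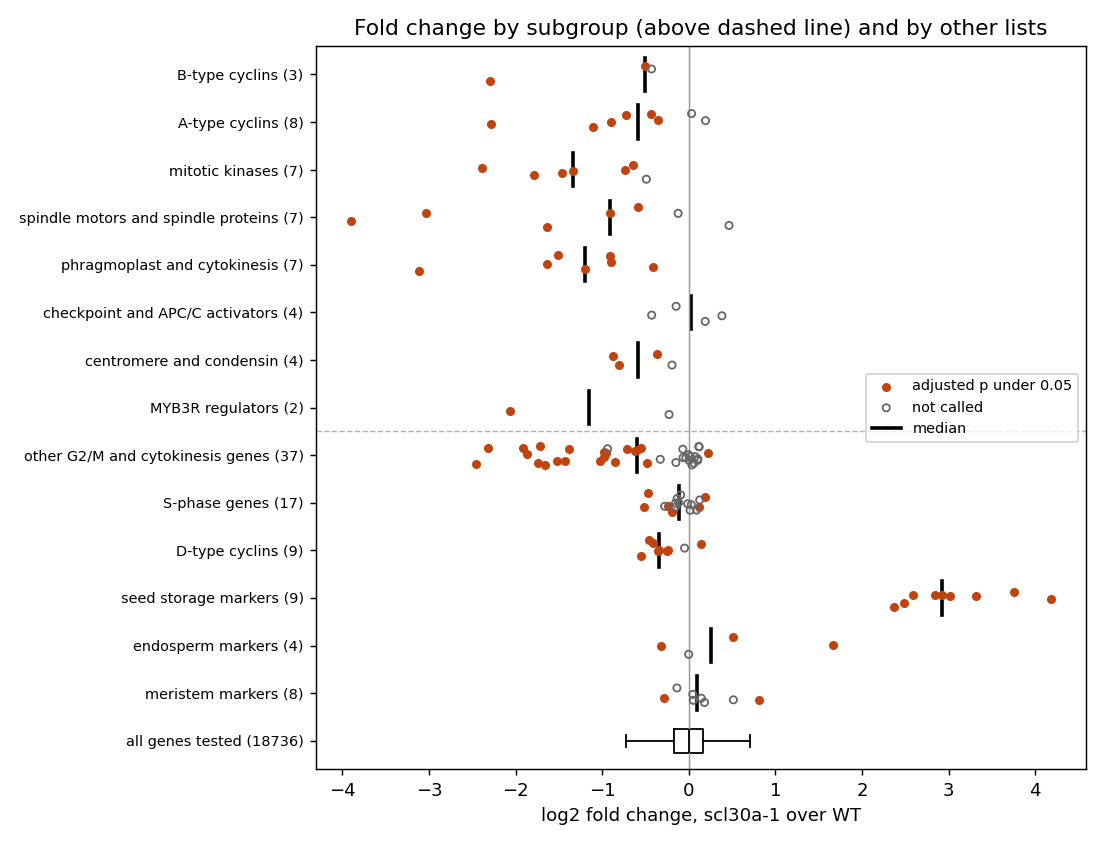
Log2 fold change, scl30a-1 over WT, of each gene tested, by subgroup of the members (above the dashed line) and by other lists (below it), with the number of genes in brackets. Filled points were called, open points were not, bars are medians, and the box gives the quartiles of all genes with whiskers at the percentiles 5 and 95. Medians of the member subgroups lie between -1.34 and 0.0216, that of the S-phase genes is -0.117, and that of the D-type cyclins is -0.339.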

How the data were processed

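RNA was extracted from germinating seeds and sequenced as poly(A) libraries, per the labels' protocols. The authors deposited 1 table with raw read counts per gene for each library, with no pooling, per the file headers. Its 6 columns of length-normalised values were not used here. The build was TAIR10 per the submitters' processing notes. The aligner, filters and use of strand are not given in the sources used here. Column names give a genotype and a letter, so libraries were assigned to a genotype only.

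Of 33602 loci, 1213 had no value. The filter of edgeR (filterByExpr, minimum count 10) left 18736 genes. Quasi-likelihood tests were run in edgeR 4.0.16 (R 4.3.3) with TMM scaling and genotype as the only term, and p-values were adjusted by the Benjamini-Hochberg method across these genes. CPM use TMM-scaled library sizes. Standard errors are the coefficient over the square root of F. For 3 against 3 libraries an exact permutation test of 1 value cannot go below p = 0.1, so none was used. A count of 3 corresponds to 0.035 to 0.0424 CPM on library totals before TMM scaling. This floor covers counting error only, whereas the SDs and standard errors also hold the spread between libraries. Levels between genes are compared as CPM per kilobase of the longest RefSeq transcript.

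Members and lists were chosen with earlier results of these data known. Values in every library are given for members called with a log2 fold change of at least 1 in size, the 2 members with the smallest p per subgroup, and both MYB3R genes. Genes of other lists are named by the same size or the 2 smallest p. Others named (such as CCS52A2, MYB3R3, MYB3R5, BUB3.1, MPS1, NUF2, MAD1, SNAP33, MCM genes, CDKA;1, MAP65-1 and KEULE, and the meristem markers) were chosen after their values were seen. So were NDC80, CENP-C, NPSN11, MKK6, CKS1, ESP and CAP-G. Gene models, promoter windows and the share of 36-base words found in the longest transcripts of other genes come from RefSeq TAIR10.1, whose nuclear chromosomes are those of TAIR10. Alternatives were DESeq2 size factors, no composition scaling, upper-quartile scaling, no filter, a minimum mean count of 10, tests with limma-voom (limma 3.58.1) and DESeq2 1.42.0, correction of GC content and length by loess (span 0.4), each library left out, and an adjusted p under 0.01.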

Additional observations from a re-analysis of the deposited data

How the results depend on the processing

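Over the 15 settings listed in the methods, 28 of the 30 members called lower kept that call. The exceptions were CYCA3;1, not called without WT library b or at an adjusted p under 0.01, and RSW7, not called at an adjusted p under 0.01. The number of members called lower ranged from 28 to 35 and was highest with upper-quartile scaling. The number called higher was 0 in every fit except that without WT library c, where it was 1 (EDE1), so the range over fits that left out a library was 0 to 1. The median log2 fold change of the members was -0.84 with upper-quartile scaling, which moved the median of all genes to -0.065, and ranged from -0.79 to -0.71 over fits that left out a library (-0.7863 without WT library a, -0.713 without scl30a-1 library a). The number of all genes called fell to 5008 at an adjusted p under 0.01, by construction. Lower calls among all genes were 3700 of 7806, against 4589 of 7708 with no composition scaling and 5258 of 8219 with upper-quartile scaling. Among the 22 members with values given in every library, 330 values under these settings held 0 reversals, 0 lost calls and 8 gained calls, all of MYB3R1. Most of the 22 were selected for a large fall or a small p in the main fit, so kept calls among them were likely beforehand. CYCA3;1 and RSW7 are not among them. The columns carry letters and not the replicate numbers of the labels, so a pairing by number could not be made. A replicate block on the column letter, added after seeing the data, called 32 members lower, 0 higher and 8940 genes in all, with SMC2-1 (adjusted p = 0.0189) and MYB3R1 (0.00808) gained and no member's call lost. Deviations of same-lettered libraries correlated at -0.0772 (a), 0.238 (b) and 0.247 (c) across genes. Those of different-lettered libraries correlated at -0.402 to 0.233, so the b and c values were the highest of all. These values do not settle whether the letters are pairs, and the main fit did not use them. Counts at or below 12 per library limit what can be said of the 10 untested members.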
